A study of Mus musculus with 36 samples.

Results

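The effect of Core Circadian Modulator (CCM) on resting wild-type macrophages was read from 6 of the 36 RNA-seq libraries of the series, 3 labelled CCM alone and 3 labelled vehicle. The members were chosen by genotype and treatment alone, with no measured value. The cells were bone marrow-derived macrophages (BMDMs) of female mice aged 13 to 17 weeks, on a C57BL/6 background, grown with macrophage colony-stimulating factor. The wild-type (WT) animals carried floxed alleles of Bmal1 without Cre, and the knockout (KO) littermates also carried Cre under the LysM promoter, which is active in myeloid cells. WT CCM cells received 100 µM CCM in DMSO for 6 h and WT vehicle cells received DMSO, and neither group received LPS. The other libraries were used here only to set the same treatment beside it, as CCM against vehicle in KO cells (6 and 6 libraries) and as CCM with 100 nM LPS against LPS alone in WT cells (3 and 3) and in KO cells (6 and 6). The study calls its replicates biological and gives n by genotype, but the labels tie no library to a mouse. P-values measure the spread between these samples, part of which may be technical.

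BMAL1, encoded by Arntl, is a transcription factor of the bHLH-PAS family that pairs with CLOCK or NPAS2 on E-box sequences and drives the Per, Cry and Rev-erb genes, whose products feed back on it. The circadian clock is known in macrophages for setting the daily timing of their inflammatory responses. CCM was developed as a ligand of the PASB domain of BMAL1. PAS domains also occur in the aryl hydrocarbon receptor, the hypoxia-inducible factors and the neuronal factor NPAS4.

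Read pairs counted on genes came to 18824202 to 20712295 in the 3 CCM libraries and 19016154 to 28288923 in the 3 vehicle libraries. All 12 macrophage markers checked were detected in each, with a summed level of 21629 to 24362 CPM, counts scaled to a common library size, in vehicle and 23263 to 25033 CPM in CCM. Summed markers of other cells were 766 to 815 CPM against 513 to 804 CPM for neutrophils, and 554 to 1599 CPM against 377 to 931 CPM for fibroblasts, vehicle first. Those of mast cells and basophils, led by Prss34, were 30.1 to 34.2 CPM in vehicle and 18.8 to 22.2 CPM in CCM, and those of dendritic cells 2.18 to 3.88 and 1.22 to 1.66 CPM. These 2 sets did not overlap between the groups, no marker gene passed the test, and their part in the results below was not tested. In bulk samples, fewer cells of a type and less RNA per cell cannot be told apart. B cell, T and NK cell and erythroid markers summed to at most 168, 3.59 and 3.38 CPM. Mitochondrial transcripts took 1.31 to 1.45% of counts in the 6 libraries.

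Between CCM and vehicle, 9 genes passed the test, 7 higher and 2 lower with CCM (edgeR's quasi-likelihood test, adjusted p at most 0.05). They are 0.0642% of the 14024 genes tested, 0.0499% of which were called higher and 0.0143% lower. Among the 7 that rose, Slc7a11, Gsr and Srxn1 act in cystine uptake, glutathione recycling and peroxiredoxin repair, and the others were Arrdc3, Abcg1, Xpo1 and Clec4d. The 2 that fell were Sqle, an enzyme of cholesterol synthesis, and Ahrr, the repressor of the aryl hydrocarbon receptor. Absolute changes of these 9 genes ran from 0.42 to 0.99 on the log2 scale, and their libraries did not overlap between groups, as was the case for 16.1% of all genes tested. All 9 are protein-coding.

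At an unadjusted p under 0.05, 675 genes (4.81%) were higher and 727 (5.18%) lower, against 701.2 expected by chance in both directions together. DESeq2, run on the same counts, called 241 genes, 131 higher and 110 lower, or 2.36% of the 10214 genes it gave an adjusted p, and all 9 genes were among them. The median absolute change of these 241 genes was 0.35 on the log2 scale, and 2 of them changed by at least 1. The number of calls rested on the libraries used, since it was 0 without any one of the CCM libraries, 2 without vehicle replicate 1, 1 without vehicle replicate 2 and 26 without vehicle replicate 3. With total counts as the only scaling 8 genes were called higher and 1 lower. With the replicate number as a block 268 were called, 101 higher and 167 lower, so the split by direction turned over. Same-numbered libraries of this comparison fell short of the criterion for pairs, so the block was not used for the reported calls.

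**Figure D1:**
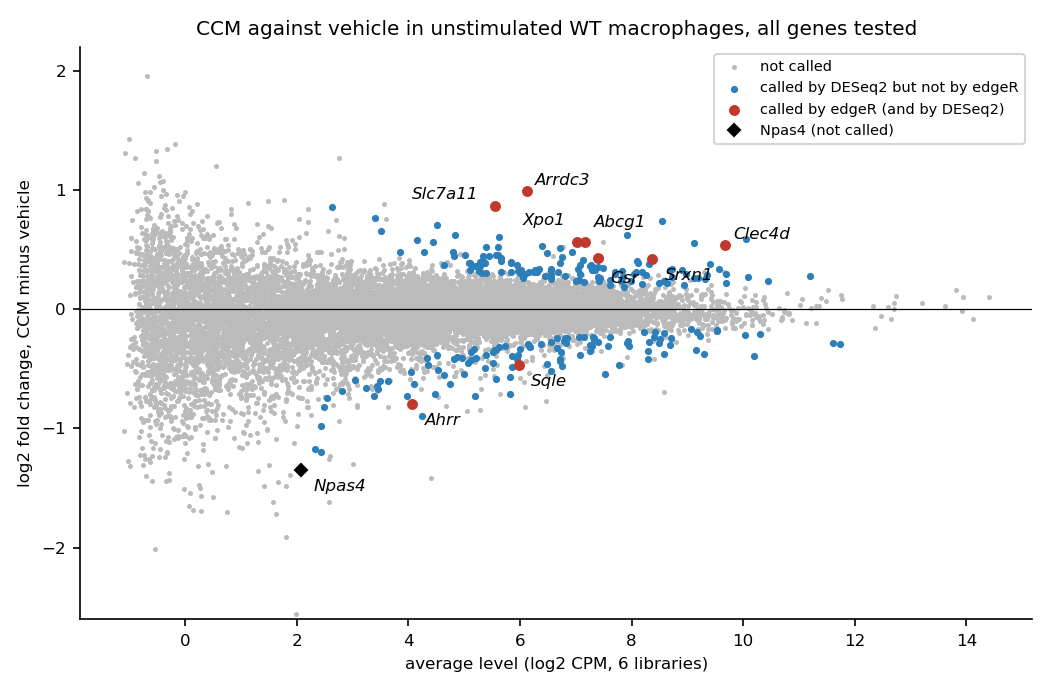
Log2 fold change with CCM (vertical axis) against the average level in log2 CPM (horizontal axis) for the genes tested in the 6 unstimulated WT libraries, with 5 genes outside the plotted range. The 9 genes called by edgeR (red) are labelled, as is Npas4 (black diamond, not called), and the genes called by DESeq2 alone (blue) lie in both directions.

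Promoter sequences are shown for genes whose regulators have well-known binding letters, since oxidative stress genes and a target of the aryl hydrocarbon receptor are among the genes that moved. They were taken from RefSeq on build GRCm38.p6, which holds promoters for 6 of the 9 called genes under their symbols (8 promoters). The window searched on both strands was the 250 bases before and 50 after each gene's start. For Ahrr (chr13:74292332-74292581, minus strand) and for Gclm (chr3:122245307-122245556, plus strand), the subunit that adjusts the first enzyme of glutathione synthesis, the 250 bases before the start are printed, and for Srxn1 (chr2:152105542-152105571, plus strand) 30 bases around the match, 5′ to 3′ on the gene's strand. Capitals mark the core of the xenobiotic response element (TNGCGTG) in Ahrr and of the antioxidant response element (TGACNNNGC) in the other two, where it is read on the opposite strand.
Ahrr: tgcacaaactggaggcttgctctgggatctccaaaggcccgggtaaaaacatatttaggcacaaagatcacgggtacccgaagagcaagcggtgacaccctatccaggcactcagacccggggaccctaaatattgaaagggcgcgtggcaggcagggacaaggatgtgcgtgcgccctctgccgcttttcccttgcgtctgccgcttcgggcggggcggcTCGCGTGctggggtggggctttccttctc
Gclm: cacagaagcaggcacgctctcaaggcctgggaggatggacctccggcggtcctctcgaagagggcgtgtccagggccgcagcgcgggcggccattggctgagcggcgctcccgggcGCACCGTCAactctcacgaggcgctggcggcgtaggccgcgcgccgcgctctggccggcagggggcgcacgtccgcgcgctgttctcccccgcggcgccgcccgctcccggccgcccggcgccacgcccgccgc
Srxn1: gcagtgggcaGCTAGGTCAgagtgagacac

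The match in Ahrr begins 29 bases before the start, that in Gclm 134 bases before it, and that in Srxn1 at base 29 after it. Of 32851 promoters of the same length, 5.07% hold TNGCGTG and 12.4% hold TGACNNNGC. The E-box CACGTG, the binding letters of the BMAL1 and CLOCK pair, is in 7.15% of all promoters and in 0 of the promoters of the 6 called genes. The sterol core TCACNCCAC, in 1.24% of all promoters, was not found in them either. The xenobiotic core was in 1 of the 6 called genes (Ahrr) and the antioxidant core in 1 (Srxn1), so Slc7a11, Arrdc3, Xpo1 and Clec4d held neither. Gclm, which did not pass, is shown as a listed gene of glutathione synthesis with a match. A match is a description of letters and not a site.

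Slc7a11 (chr3:49892526-50443614, minus strand, mm10) encodes the light chain of the transporter that takes up cystine in exchange for glutamate, and cystine limits the synthesis of glutathione. It stood at 30.5, 30.9 and 38.0 CPM in the vehicle libraries and at 64.6, 57.8 and 59.8 CPM with CCM. The lowest CCM library thus lay well above the highest vehicle library, and Slc7a11 rose by 0.87 ± 0.09 on the log2 scale (SE, adjusted p = 0.0288). Slc3a2, its heavy chain, was at 487 to 539 CPM in vehicle and 594 to 619 CPM with CCM. It did not pass (adjusted p = 0.143), though DESeq2 called it higher.

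Gsr (chr8:33652523-33698163, plus strand), glutathione reductase, which returns oxidized glutathione to its reduced form with NADPH, was among the most even measurements. It had 143.8, 140.6 and 146.3 CPM in vehicle and 197.9, 195.6 and 186.9 CPM with CCM, a rise of 0.43 ± 0.05 (adjusted p = 0.0288). Srxn1 (chr2:152105516-152111376, plus strand), sulfiredoxin, repairs peroxiredoxins that peroxide has inactivated. Its level was 292.1, 278.9 and 279.3 CPM in vehicle and 387.4, 381.7 and 367.8 CPM with CCM, a rise of 0.42 ± 0.05 (adjusted p = 0.0288). Within each group the libraries of both genes lay close together. The mean ± SD (n = 3 each) was 143.6 ± 2.8 and 193.5 ± 5.8 CPM for Gsr and 283.4 ± 7.5 and 379.0 ± 10.1 CPM for Srxn1.

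Slc7a11, Gsr and Srxn1 belong to a list of 27 genes tied to NRF2, the factor that answers oxidative and electrophilic stress. All 27 were tested, 3 passed higher and none passed lower. At an unadjusted p under 0.05, 13 were higher and 0 lower, beside 4.81 and 5.18% of all genes. The 3 called genes are among the 13, and this list, like the others, was chosen with earlier results of these data known. The median change of the list was 0.18 on the log2 scale, beside -0.01 over all genes tested, and 21 of 27 members lay above 0. By library, the median change from the vehicle mean was 0.27, 0.22 and 0.12 in CCM replicates 1, 2 and 3.

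By role, the 7 glutathione and cystine genes had a median of 0.34 and the 4 thioredoxin genes one of 0.24. The 5 enzymes that supply NADPH had a median of 0.13 and the 9 detoxification and iron genes one of 0.20. The 2 regulators themselves, Nfe2l2 and Keap1, were at -0.05 and -0.09, and neither passed. Catalase (Cat) went from 434 to 474 CPM in vehicle to 583 to 731 CPM, Gclm from 261 to 311 CPM to 391.5 to 533.6 CPM, and Hmox1, heme oxygenase, from 780 to 934 CPM to 1084 to 1415 CPM. None of these 3 overlapped between groups and none passed (adjusted p = 0.0755, 0.0755 and 0.0877), though DESeq2 called each. Nqo1, a quinone reductase often used to read this pathway and named here after its values were seen, was at 11.1 to 15.1 CPM in vehicle and 9.85 to 13.02 CPM with CCM.

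**Figure D2:**
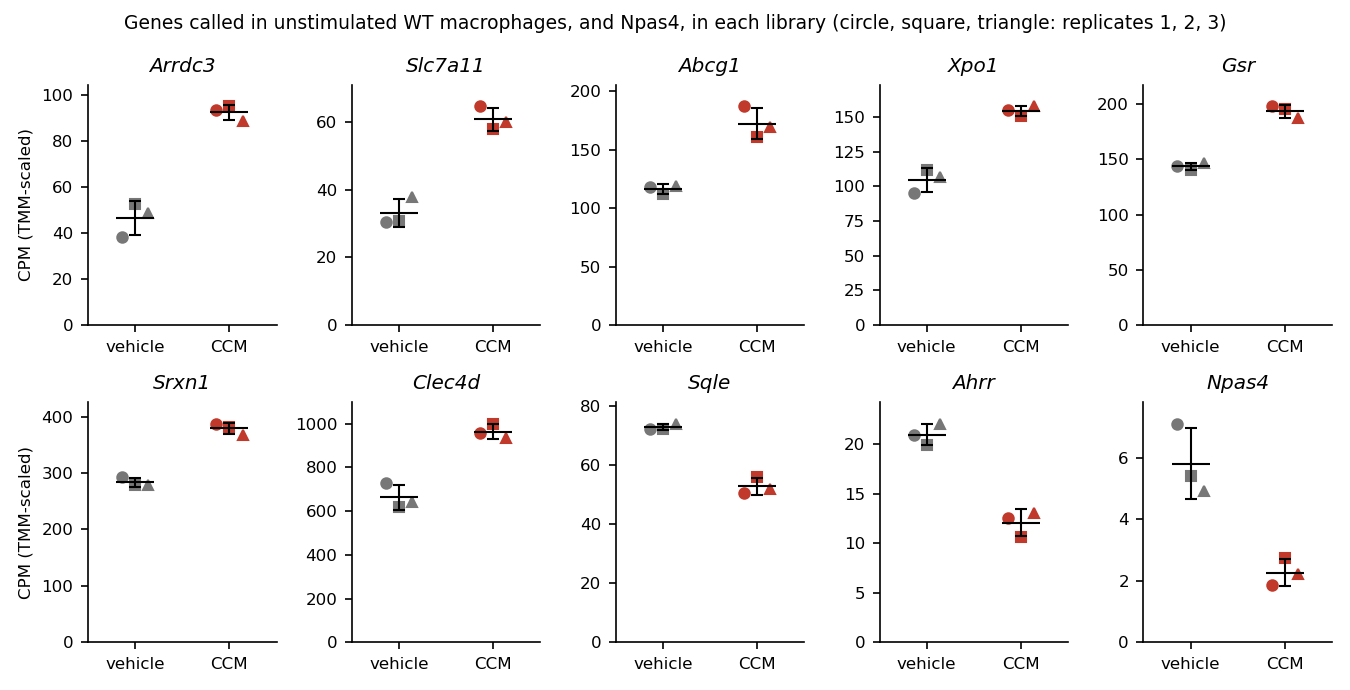
Level in CPM (vertical axes, from 0) of the 9 called genes and Npas4 in the 3 vehicle and 3 CCM libraries of unstimulated WT macrophages, with the mean and SD as bars. The vehicle and CCM libraries do not overlap for any of the 10 genes, with Arrdc3 at 38.5 to 52.7 CPM in vehicle and 88.76 to 94.96 CPM with CCM.

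Arrdc3 (chr13:80883384-80896042, plus strand) had the largest change among the 9 genes. It encodes an alpha-arrestin, an adaptor that links membrane receptors to ubiquitin ligases and steers them through endosomes. Its level was 38.5, 52.7 and 48.7 CPM in vehicle and 93.23, 94.96 and 88.76 CPM with CCM, a rise of 0.99 ± 0.10 (adjusted p = 0.0288). The other 4 alpha-arrestins (Arrdc1, Arrdc2, Arrdc4 and Txnip) lay between -0.30 and 0.07, and none of them passed. Of the 12 FOXO targets listed with them, none passed. Klf2 and Sesn1 had the smallest p among these, at -0.65 and -0.24 (adjusted p = 0.123 and 0.150), and DESeq2 called both lower.

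Xpo1 (chr11:23256041-23298249, plus strand), the receptor that carries proteins with leucine-rich export signals out of the nucleus, was at 95.4, 111.9 and 106.5 CPM in vehicle and at 155.4, 150.4 and 157.7 CPM with CCM. It rose by 0.56 ± 0.07 (adjusted p = 0.0288). Among the 21 import and export receptors tested it was the one that passed, and the median of the list was 0.03. The next by p were Ipo5 at -0.16 and Xpo7 at 0.14 (adjusted p = 0.309 and 0.532).

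Clec4d (chr6:123262111-123275265, plus strand), a C-type lectin of myeloid cells that binds microbial glycolipids, was the most abundant of the called genes. It had 728, 619 and 642 CPM in vehicle and 957, 1000.4 and 934 CPM with CCM, a rise of 0.54 ± 0.07 (adjusted p = 0.0445).

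Genes of sterol handling moved in both directions. Abcg1 (chr17:31057698-31115777, plus strand), which exports cholesterol to lipoproteins and is a classic target of the liver X receptors (LXR), was at 118.3, 111.9 and 119.3 CPM in vehicle and at 187.0, 160.6 and 169.2 CPM with CCM. It rose by 0.56 ± 0.07 (adjusted p = 0.0288). Sqle (chr15:59315077-59331192, plus strand), squalene epoxidase, an oxygen-dependent step of cholesterol synthesis, was at 72.3, 72.3 and 74.1 CPM in vehicle and at 50.5, 55.9 and 52.0 CPM with CCM. It fell by 0.47 on the log2 scale (SE 0.06, adjusted p = 0.0445).

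Of 26 listed genes of cholesterol synthesis, its control and uptake, 25 were tested, and Sqle was the one that passed. The list had a median of -0.22, beside -0.01 over all genes, with 24 of 25 members below 0. At an unadjusted p under 0.05, 13 were lower and 0 higher. All 20 enzymes lay below 0, with a median of -0.25, and the 5 regulators and uptake genes had one of -0.07. The median was -0.19, -0.22 and -0.22 in the 3 CCM libraries.

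The demethylase Cyp51 was at 98.4 to 112 CPM in vehicle and 70.1 to 78.9 CPM with CCM. The groups did not overlap, and Cyp51 did not pass (adjusted p = 0.0755) but was called lower by DESeq2. Of the 16 LXR genes tested, Abcg1 was the one that passed, 6 were higher and 1 lower at an unadjusted p under 0.05, and the median was 0.13. Mylip, whose product degrades the LDL receptor, was at 0.45, and Rxra, the partner of LXR, at 0.32 (adjusted p = 0.122 and 0.131). DESeq2 called both higher.

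Of 13 tested genes of PPAR signalling and lipid droplets none passed, and the median was 0.04. Angptl4 was at 0.57, Plin2, a coat protein of lipid droplets, at 0.27 and Pparg itself at -0.34 (adjusted p = 0.0877, 0.190 and 0.0961). DESeq2 called Angptl4 and Plin2 higher and Pparg lower.

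Ahrr (chr13:74211118-74292331, minus strand) is a bHLH-PAS protein that competes with the aryl hydrocarbon receptor (AhR) and whose gene is itself switched on by AhR. Its level was 21.0, 19.9 and 22.1 CPM in vehicle and 12.6, 10.6 and 13.1 CPM with CCM. It fell by 0.80 on the log2 scale (SE 0.11, adjusted p = 0.0481), the weakest of the calls, and was not called with edgeR's older quasi-likelihood fit. The other 4 tested AhR genes did not pass. Cyp1b1 and Tiparp, targets of AhR, were at -0.85 and -0.20, Ahr itself at 0.42 and its partner Arnt at 0.11. Cyp1b1 varied widely within groups, from 26.1 to 57.7 CPM in vehicle and 11.6 to 37.2 CPM with CCM, and its groups overlapped. In both groups it rose from replicate 1 to 3. So did the fibroblast marker Col1a1 (262, 382 and 782 CPM in vehicle, 167, 305 and 409 CPM with CCM). The macrophage marker Mrc1 rose likewise (195, 235 and 294 CPM, then 185, 214 and 255 CPM). Which cells gave the Cyp1b1 reads was not tested.

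None of the 15 hypoxia genes passed, and their median was 0.02. Vegfa was at 0.48 and Pdk1 at -0.34 (adjusted p = 0.216 and 0.131). Neither overlapped between groups, and DESeq2 called Vegfa higher and Pdk1 lower. Npas4, known as a factor switched on by neuronal activity, was a low gene here, with 7.10, 5.39 and 4.91 CPM in vehicle and 1.85, 2.73 and 2.22 CPM with CCM. Every CCM library was below every vehicle library, at -1.35 ± 0.23 on the log2 scale, but the adjusted p was 0.0877. DESeq2 gave no adjusted p for it, and edgeR without a filter on low counts called it (adjusted p = 0.0340). The study, which tested with DESeq2, names Npas4 among the few genes significant with CCM in unstimulated cells. Whether Npas4 was called thus differed with the test and filter used.

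No clock gene passed. Of 24 listed genes 23 were tested, with a median of -0.02, and at an unadjusted p under 0.05 there were 2 higher and 1 lower. The genes of the activator partners had levels of 8.47, 10.1 and 11.5 CPM in vehicle and 10.5, 9.91 and 13.1 CPM with CCM for Arntl, and of 38.7, 46.3 and 45.7 CPM and 46.7, 42.8 and 49.3 CPM for Clock. Both overlapped between groups (0.15 ± 0.16 and 0.09 ± 0.09). Arntl2 and Npas2 were under 2 CPM in every library.

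The repressors, which Arntl and Clock drive, had a median of -0.14 over 8 genes. Per1 was at 37.9 to 43.5 CPM in vehicle and 35.3 to 38.7 CPM with CCM, Per2 at 2.90 to 3.96 and 2.44 to 2.95 CPM, and Per3 at 6.22 to 7.24 and 4.97 to 7.04 CPM. Their changes were -0.13 ± 0.08, -0.40 ± 0.20 and -0.24 ± 0.17, with adjusted p-values of 0.601, 0.551 and 0.679. Cry1 and Cry2 were at -0.09 and -0.14, Ciart at -0.42, Bhlhe40 at 0.02 and Bhlhe41 at 0.18.

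The nuclear receptors of the second loop were Nr1d1, at 10.6 to 17.6 CPM in vehicle and 10.99 to 15.57 CPM with CCM, Nr1d2, at 0.05 ± 0.08, and Rora. Rora, an activator of Arntl, had the smallest p of the list, at 20.6, 23.0 and 23.9 CPM in vehicle and 28.4, 24.1 and 27.7 CPM with CCM (0.25 ± 0.10, adjusted p = 0.435). The output factor Dbp was at -0.35 ± 0.15, and its libraries did not overlap between groups (adjusted p = 0.470). Among the other output factors Tef was at 0.00, Hlf at -0.54 and Nfil3 at 0.25. The kinases and a ubiquitin ligase, Csnk1d, Csnk1e and Btrc, lay between -0.02 and 0.07. With 3 libraries a group, one time of sampling and SEs of 0.06 to 0.42, these values do not show that clock genes were unaffected.

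**Figure D3:**
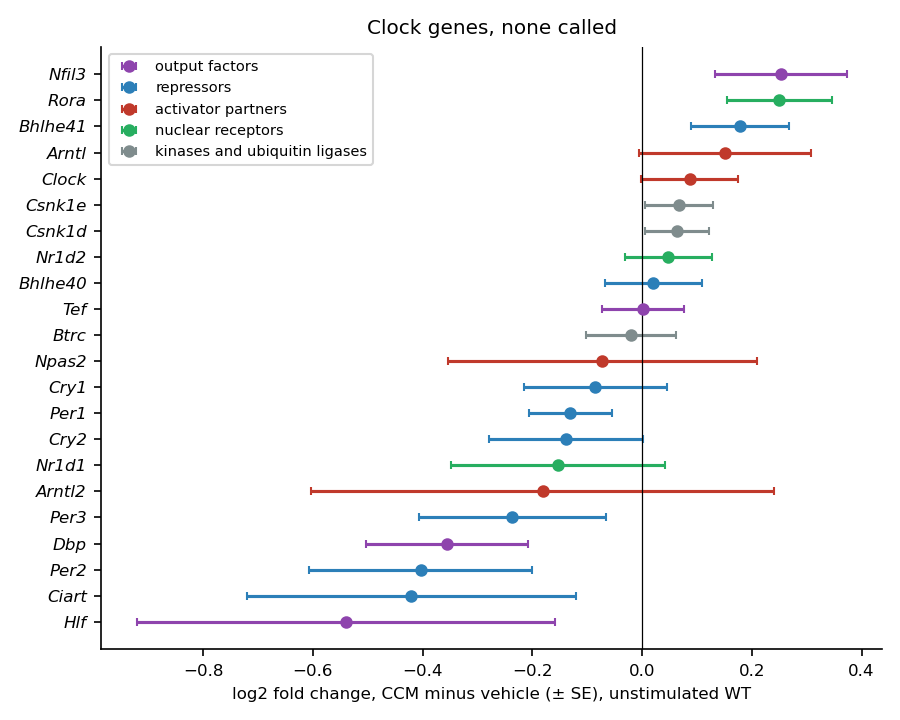
Log2 fold change with CCM (horizontal axis) with its SE for 22 clock genes in unstimulated WT macrophages, coloured by role. Values run from -0.54 for Hlf to 0.25 for Nfil3, and no gene passed.

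Proliferation genes lay lower with CCM as a group, with none passing. Of 22 cell cycle genes, 21 were below 0, the median was -0.26, and 10 were lower and 0 higher at an unadjusted p under 0.05. The median was -0.30, -0.23 and -0.26 in the 3 CCM libraries. Ccnd1, cyclin D1, was at 62.8, 81.3 and 67.1 CPM in vehicle and 38.1, 42.1 and 48.5 CPM with CCM (-0.71 ± 0.11, adjusted p = 0.0834). Mcm5 and Mcm6, parts of the replicative helicase, were at -0.42 and -0.44 (adjusted p = 0.118 and 0.122). DESeq2 called 5 of the 22 lower and 0 higher, beside 2.36% of all genes it gave an adjusted p. Ccnd1, Mcm5 and Mcm6 were among the 5.

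Inflammatory and interferon genes were measured at rest here, and 5 cytokine or enzyme genes of the lists (Il6, Il12b, Il23a, Csf3 and Nos2) and Ifnb1 were too low to be tested. Of 19 inflammatory genes tested none passed, 15 were below 0 and the median was -0.25. The libraries were uneven, with medians of -0.11, -0.42 and -0.03 in CCM replicates 1, 2 and 3. The monocyte chemokine genes Ccl2 and Ccl7 were at 15.1 to 23.0 and 4.53 to 6.67 CPM in vehicle, and 8.31 to 14.1 and 1.69 to 5.01 CPM with CCM. Il10, an anti-inflammatory cytokine gene, was at 2.58 to 3.38 and 1.40 to 2.04 CPM. The adjusted p-values of the 3 genes were 0.263, 0.441 and 0.338. DESeq2 called 1 of the 19 lower, Ccl2, and 0 higher.

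Of 28 interferon-induced genes and their regulators tested none passed, 23 were below 0 and the median was -0.26. That median was not shared by the libraries, being -0.69 and -0.37 in CCM replicates 1 and 2 and 0.12 in replicate 3. Gbp3 and Gbp2, guanylate-binding proteins of cell-autonomous defence, were at -0.68 and -0.53 and Xaf1 at -0.53 (adjusted p = 0.122, 0.307 and 0.230). DESeq2 called 1 of the 28 lower, Gbp3, and 0 higher. Of a panel of 21 phagocytosis genes, which the study selected as BMAL1 targets and showed with libraries of this series, none passed and the median was -0.05. Scarb1, a scavenger receptor, was at -0.27, Anxa1 at -0.39 and Mertk, a receptor for dying cells, at 0.43 (adjusted p = 0.0877, 0.123 and 0.118). DESeq2 called 1 of the 21 higher (Mertk) and 3 lower (Scarb1 and Anxa1 among them), beside 2.36% of all genes it gave an adjusted p. The study reports most of the panel as suppressed by CCM, in a passage after its LPS results. With LPS the median of the panel was -0.31 in WT and -0.30 in KO.

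The other lists held 0 called genes apart from Slc7a11, which also stands among the amino acid transporters. Medians were -0.07 for 26 immediate early genes, -0.12 for 11 genes of the unfolded protein response, -0.04 for 17 heat shock genes and -0.02 for 17 genes of the integrated stress response. They were -0.01 for 16 amino acid transport genes, 0.01 for 10 glucocorticoid and metal response genes and 0.00 for 24 lysosome genes. Among single members, Atf5, a stress-response factor, was at 43.0 CPM on average in vehicle and 58.2 CPM with CCM (0.43 ± 0.07, adjusted p = 0.0835). DESeq2 called Atf5 higher.

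**Figure D4:**
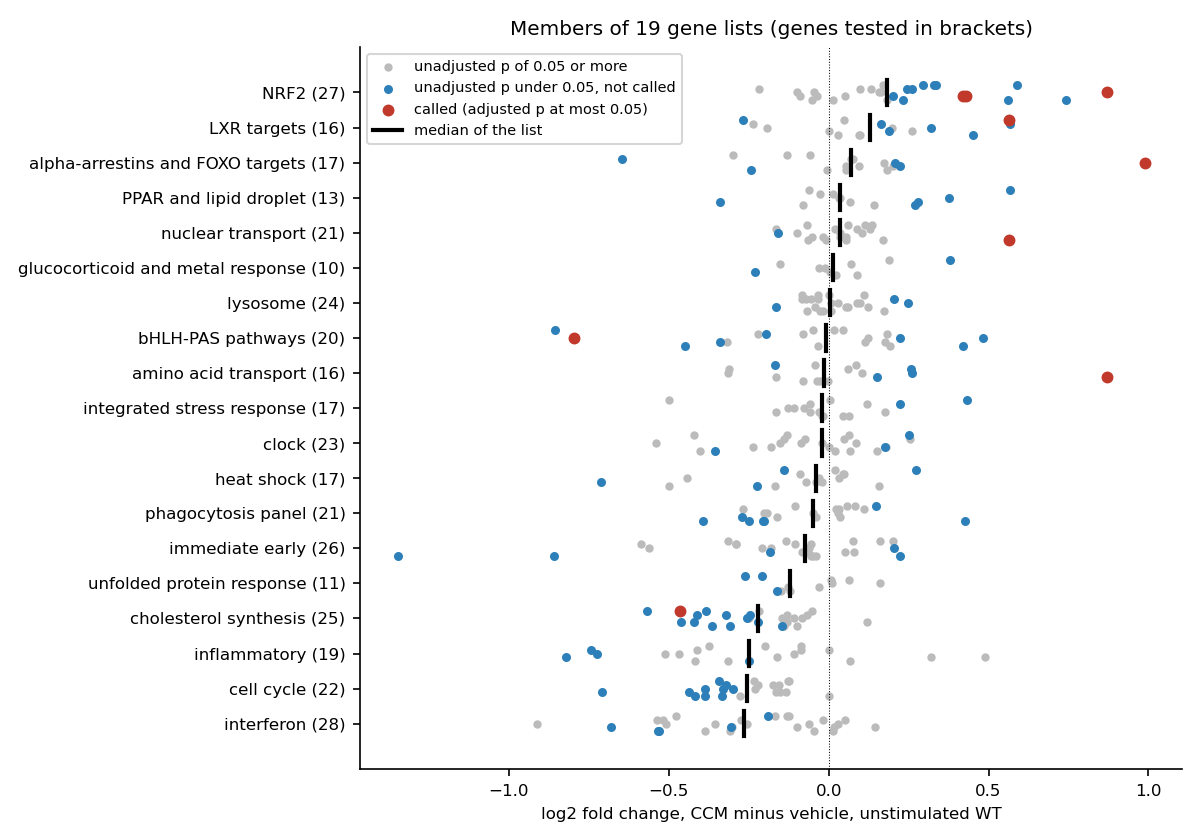
Log2 fold change with CCM in unstimulated WT macrophages (horizontal axis) of the tested members of 19 gene lists (vertical axis, ordered by median), with called genes in red, genes at an unadjusted p under 0.05 in blue and the list median as a black bar. The NRF2 list stands at the top with a median of 0.18, and the interferon, cell cycle, inflammatory and cholesterol synthesis lists stand lowest, between -0.26 and -0.22.

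Several genes just missed the threshold and were called by DESeq2 and by edgeR with no filter. Those higher with CCM were Slc40a1, the iron exporter ferroportin, at 180 to 201 CPM in vehicle and 251 to 334 CPM with CCM, Slc16a6, of the monocarboxylate transporter family, at 19.4 to 25.1 and 32.8 to 36.3 CPM, and Mturn, at 7.23 to 8.69 and 12.6 to 13.8 CPM. Those lower were Ptgs1, cyclooxygenase 1, at 61.3 to 71.1 and 47.9 to 49.0 CPM, Pdgfb, a growth factor gene, at 104 to 122 and 72.9 to 82.5 CPM, and Cd72, an inhibitory receptor, at 187 to 234 and 148 to 151 CPM. Pcp4l1 was at -0.73 and the pseudogene Gm7536 at -0.63. Their adjusted p-values were 0.0755 to 0.0835. Of the called genes, 4 (Arrdc3, Slc7a11, Abcg1 and Gsr) overlap another annotated gene (1700023H06Rik for Arrdc3, predicted genes such as Gm37498, Gm25447 and Gm24727 for the others). Whether reads were counted by strand is not given in the sources used here, so reads of the pairs may have been shared.

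The same treatment in unstimulated KO macrophages, whose libraries enter no WT value, asks whether the changes need BMAL1. In this table Arntl itself separated the genotypes poorly. It was at 7.52 to 11.1 CPM (TMM over all 36 libraries) in the 6 WT libraries, 2.87 to 7.98 in KO vehicle and 4.803 to 10.79 in KO CCM. These counts cover the whole gene, so they do not show whether its floxed part was lost. They do not measure BMAL1 protein either. In KO, 0 of 13799 genes (0.0%) passed in the fit without pairs, with 354 at an unadjusted p under 0.05. With the replicate number as a block, which the KO libraries bear out, 498 (3.61%) passed. KO replicate 6 stands apart from the other KO replicates, and without it 131 genes (0.943%) passed.

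All 9 genes called in WT moved the same way in KO. Each passed in KO with the block, and each passed without replicate 6. Arrdc3 had a lowest, median and highest level of 13.6, 43.0 and 46.9 CPM in KO vehicle and of 24.6, 77.9 and 95.8 CPM in KO CCM. Slc7a11 had 24.3, 39.8 and 47.9 CPM in vehicle and 27.8, 68.3 and 81.5 CPM with CCM. In both genes the ranges overlapped, and CCM was above vehicle in 6 of 6 same-numbered pairs.

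Sqle had 58.1, 66.3 and 75.5 CPM in KO vehicle and 42.2, 47.2 and 51.7 CPM with CCM, with no overlap between the groups. Ahrr had 8.75, 21.5 and 26.9 CPM and 3.63, 11.7 and 14.1 CPM. For these 2 genes CCM was below vehicle in 6 of 6 pairs. Abcg1 was above vehicle in 5 of 6 pairs and Xpo1, Gsr, Srxn1 and Clec4d in 6 of 6.

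Changes in KO were 0.90 ± 0.32 for Arrdc3, 0.74 ± 0.23 for Slc7a11, 0.53 ± 0.24 for Abcg1 and 0.54 ± 0.17 for Xpo1 on the log2 scale, without the block. They were 0.33 ± 0.14 for Gsr, 0.35 ± 0.09 for Srxn1, 0.48 ± 0.21 for Clec4d, -0.48 ± 0.09 for Sqle and -0.97 ± 0.30 for Ahrr. Npas4 was at -0.80 ± 0.44, and CCM was below vehicle in 6 of 6 pairs (adjusted p = 0.0175 with the block).

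The difference between genotypes was tested as an interaction, and 0 of 14905 genes (0.0%) passed, with 103 at an unadjusted p under 0.05 and 0 called by DESeq2. The KO spread left that test wide, in a fit that left out the pairing of the KO libraries and kept KO replicate 6. Genes at an unadjusted p under 0.05 numbered 394 with the replicate block and 249 without KO replicate 6, and 0 passed in each case. The intervals given here are those of the fit without the block. Whether genes would fall inside or outside them in the same way with the block was not tested. The effect in WT minus that in KO was 0.10 for Arrdc3 (95% interval -0.84 to 1.04), 0.02 for Sqle (-0.24 to 0.29), 0.08 for Srxn1 (-0.19 to 0.34) and 0.18 for Ahrr (-0.68 to 1.05). A difference as large as the whole WT effect lay inside the interval for Arrdc3, Abcg1, Gsr and Clec4d and outside it for Slc7a11, Xpo1, Srxn1, Sqle and Ahrr. The intervals use the normal distribution's multiple of an approximate SE, not a wider one for few libraries. For Slc7a11, Xpo1 and Ahrr the nearest ends were 0.82, 0.52 and -0.68, close to the WT effects of 0.87, 0.56 and -0.80. Whether Slc7a11, Xpo1 and Ahrr would stay outside with a wider multiple was not tested. WT and KO shared one estimate of the spread in this fit.

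Beyond the called genes, 1240 of the 1380 genes (89.9%) at an unadjusted p under 0.05 in WT and tested in KO lay on the same side of 0 in KO, beside 66.2% of all 13658 genes tested in both. Without KO replicate 6 these shares were 94.9 and 71.1%. Across all genes the log2 changes of the 2 genotypes had a Pearson correlation of 0.38, or 0.48 without KO replicate 6. These values are across genes, which share libraries and are not independent replicates. The list medians in KO were 0.25 for NRF2, -0.28 for cholesterol synthesis, 0.16 for LXR targets, -0.18 for cell cycle and 0.08 for clock genes. For interferon and inflammatory genes they were further from 0 than in WT, at -0.74 and -0.67. The pseudogene Gm7536 lay on the other side of 0 in KO, at 1.15 ± 0.63.

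Under LPS, which sets off the inflammatory program of macrophages through TLR4, the same compound gave more calls, 1658 of 13579 genes in WT (12.2%), or 3266 once replicate numbers were taken as pairs, which these libraries bear out. With total counts as the only scaling the 587 higher and 1071 lower calls became 1561 and 746. In KO with LPS 19 of 13386 genes passed (0.142%) in the fit without pairs, to be set beside the 1658 and not the 3266 of WT. That count was 0 to 7 without any one of KO replicates 1 to 5 and 171 without replicate 6, and DESeq2 called 200, beside 1558 in WT. Whether the effect of CCM under LPS differed between the genotypes was not tested.

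Of the 9 genes called at rest, 3 also passed in WT with LPS, Arrdc3 at 1.25 ± 0.10, Xpo1 at 0.92 ± 0.04 and Ahrr at -0.93 ± 0.09 (adjusted p = 4.3e-05, 5.4e-06 and 1.5e-04). Slc7a11 was at 0.05 ± 0.13, Abcg1 at 0.07 ± 0.12, Clec4d at 0.10 ± 0.05 and Sqle at 0.00 ± 0.05 in WT with LPS, and none of them passed. Gsr and Srxn1 were at 0.18 ± 0.06 and 0.30 ± 0.15. In KO with LPS the 9 genes had values of 1.23 for Arrdc3, 0.78 for Xpo1, -1.14 for Ahrr, 0.35 for Srxn1 and 0.36 for Clec4d, and of 0.01 for Slc7a11, 0.08 for Abcg1, 0.18 for Gsr and -0.11 for Sqle.

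**Figure D5:**
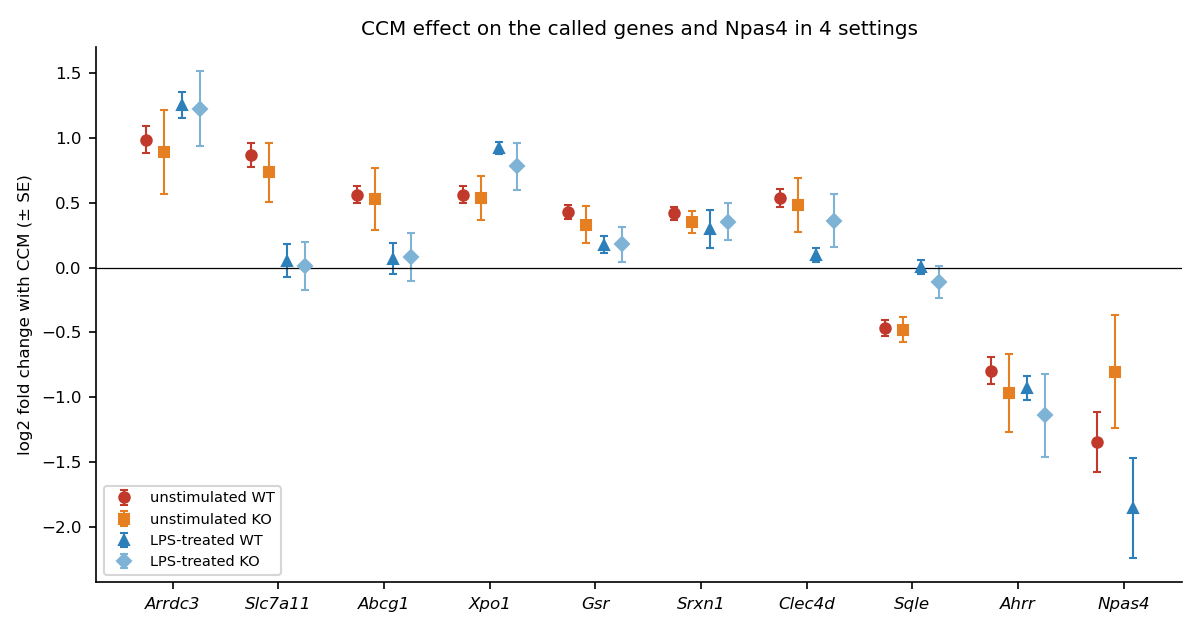
Log2 fold change with CCM (vertical axis) with its SE for the 9 called genes and Npas4 in unstimulated WT, unstimulated KO, LPS-treated WT and LPS-treated KO macrophages, each fitted on its own libraries. Arrdc3, Xpo1 and Ahrr lie on one side of 0 in all 4, while Slc7a11, Abcg1 and Sqle lie between -0.11 and 0.08 with LPS. Npas4 was not tested in LPS-treated KO.

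Whether the effect of CCM differed with LPS was tested as an interaction over the 12 WT libraries, and 294 of 14747 genes passed (1.99%), 60 with a higher and 234 with a lower value under LPS. With total counts as the only scaling the split was 206 and 105. Of the 9 genes, 4 were among the 294. The effect under LPS minus that at rest was -0.83 for Slc7a11, -0.46 for Clec4d, 0.46 for Sqle and 0.35 for Xpo1 (adjusted p = 0.0374, 0.0242, 0.0068 and 0.0353). It was -0.51 for Abcg1, which did not pass (adjusted p = 0.0966), and 0.25 for Arrdc3 and -0.15 for Ahrr.

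The direction of the changes at rest was also counted in the LPS-treated cells. Of the 1337 genes at an unadjusted p under 0.05 at rest and tested in WT with LPS, 962 (72.0%) lay on the same side, beside 57.0% of all 13066 genes tested in both. In KO with LPS the shares were 59.7 and 49.4%. In WT with LPS the median of the cholesterol synthesis list was 0.00, that of NRF2 genes 0.10, that of cell cycle genes 0.18 and that of LXR targets 0.03.

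Genes were also sorted by their response to LPS in KO macrophages, in libraries that share none with the 6 studied here (6531 of 13648 genes, 47.9%, passed). Over the 2887 genes raised by LPS in KO and tested here, the median change with CCM at rest was 0.00, with 5.75% higher and 6.55% lower at an unadjusted p under 0.05. Over the 3424 genes lowered by LPS it was -0.01, with 6.48 and 6.78%. Over the 7045 genes not called for LPS it was -0.01, with 3.89 and 4.03%. The median change at rest was thus near 0 in each set. The shares at an unadjusted p under 0.05 were higher in the raised and lowered sets than among genes not called, and the reason was not tested.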

How the data were processed

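Gene levels were read from raw read-pair counts, deposited as whole numbers for 54532 mouse genes in 36 libraries. Per the labels and the paper, the authors enriched poly(A) RNA, trimmed reads with fastp, aligned them to mm10 with HISAT2 2.0.5, counted with featureCounts 1.5.0-p3 and tested with DESeq2. The results of some genes are not reported here. The strand setting is not given in the sources used here. The table has 36 count columns, and 0 were left out.

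From the counts, each comparison was fitted on its own libraries with edgeR 4.0.16 (R 4.3.3, two-sided): filterByExpr, TMM scaling, estimateDisp, glmQLFit with legacy = FALSE, glmQLFTest, no block, Benjamini-Hochberg adjustment at 0.05. SEs are the absolute log2 change over the square root of F, so they are approximate. CPM carry the TMM factors of the comparison fitted, so WT and KO levels stand on separate scalings. Only the Arntl levels compared between genotypes carry TMM factors of all 36 libraries. Fold changes use edgeR's fitted values, and log2 CPM by library a prior count of 2. Interactions were terms of fits on 12 or 18 libraries. Genes just missing the threshold were named by a rule: called genes, Npas4, the clock list, up to 10 genes a direction called by DESeq2 and by edgeR without a filter (average log2 CPM of at least 1, groups apart), and the 3 smallest p-values of each of 19 lists. Where 2 identifiers share a symbol, lists use the more abundant one.

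The comparison, the lists and the alternatives were chosen with earlier results of these data known. The alternatives were DESeq2 1.42.0, RLE, upper-quartile and total-count scaling, no filter, voom with quality weights (limma 3.58.1), the older quasi-likelihood fit, other sets of libraries, the replicate block and leaving out libraries. No filter with the older fit was added after seeing the data. The scripts were tested on simulated counts.

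Chi-square per degree of freedom between libraries of a group was 6.00 to 19.3, above the 1 of counting noise. Summed over genes, replicate spread thus exceeded counting noise at this depth (18824202 to 28288923 read pairs in the 6 libraries). Abundant genes weigh most in that sum, and the share of counting noise in genes with few counts was not tested. Deviations of same-numbered libraries correlated at 0.337 to 0.839 in unstimulated KO, 0.151 to 0.36 in WT with LPS and 0.3 to 0.83 for LPS in KO, so these were treated as paired in the block. For unstimulated WT (0.0519 to 0.463) and KO with LPS (-0.102 to 0.813) at least 1 pair lay at or under 0.1. Biological coefficients of variation were 0.114 in WT and 0.338 in KO at rest.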

Additional observations from a re-analysis of the deposited data

Results flagged for a closer look

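KO replicate 6 lay apart from the other 5 KO replicates for several of the genes called in WT (Dixon's test at 95%, which flags about 1 in 20 groups by chance). It was the lowest for Arrdc3 in KO vehicle (13.6 CPM) and KO CCM (24.6 CPM), for Abcg1 in KO CCM (64.0 CPM), and for Xpo1 in KO vehicle (52.4 CPM) and KO CCM (89.9 CPM). It was the highest for Clec4d in KO vehicle (1265 CPM) and KO CCM (1794 CPM) and for Npas4 in KO CCM (6.67 CPM). The 6 WT libraries were not tested, since each group holds 3.

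The effect of CCM differed with LPS in WT for 294 genes (edgeR interaction, adjusted p at most 0.05). Among the genes named here, the effect under LPS minus that at rest was -0.83 for Slc7a11, 0.35 for Xpo1, -0.46 for Clec4d and 0.46 for Sqle on the log2 scale. It was 0.44 for Cd72, 0.86 for Slc16a6, 0.48 for Scarb1, 0.87 for Pparg and 0.70 for Mcm5. It was -0.65 for Mertk, 0.63 for Pdk1 and 0.85 for Sesn1.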

How the results depend on the processing

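Calls in unstimulated WT numbered 9 in the reported fit, 241 with DESeq2, 31 with no filter on low counts, 84 with the 12 WT libraries in 1 fit, 0 with all 36 libraries in 1 fit (309 at an unadjusted p under 0.05), and 377 with no filter and edgeR's older fit together (143 higher, 234 lower). With the RLE, upper-quartile or total-count scaling, voom or the older fit they numbered 8 to 11, and with RLE the split was 7 higher and 1 lower. Leaving out 1 library gave 0 to 26. In unstimulated KO the 0 calls became 42 with DESeq2 and 299 with voom, and 0 to 131 without 1 replicate. In KO with LPS the 19 calls became 200 with DESeq2, 10 with no filter, 768 with voom, and 0 to 171 without 1 replicate, the highest without replicate 6. Calls in WT with LPS were 912 to 1407 without 1 library, and those of the LPS interaction 688 with DESeq2, 447 with voom and 142 to 289 without 1 library. Total-count scaling moved the median interaction over all genes from 0.02 to 0.11. Without KO replicate 6 the LPS response in KO had 9646 calls, and 5551 without replicate 1. The genotype interaction had 0 calls in every alternative run. The causes were not tested.

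The replicate number as a block gave 268 calls in unstimulated WT (101 higher, 167 lower), where same-numbered libraries fell short of the criterion for pairs and 2 of 3 vehicle libraries correlated best with the CCM library of their own number. With the block there were 498 calls in unstimulated KO, 3266 in WT with LPS, 840 in KO with LPS, 546 for the LPS interaction and 9862 for LPS in KO.

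Of the 88 named genes, 82 kept their direction in every alternative that gave a value. Tef, at 0.00 as reported, was at -0.000641 with no filter, -0.00380 with voom, -0.000595 with total counts, -0.00574 with upper-quartile scaling and -6.96e-05 with no filter and the older fit. Without 1 library Tef ranged from -0.0598 to 0.0623, Nr1d1 from -0.326 to 0.0498, Cry1 from -0.157 to 0.00822, Arntl2 from -0.447 to 0.0495, Npas2 from -0.223 to 0.166 and Bhlhe40 from -0.0701 to 0.0821. The list medians of NRF2 (0.15 to 0.25), LXR targets (0.08 to 0.19), cholesterol synthesis (-0.23 to -0.17), cell cycle (-0.34 to -0.18), inflammatory (-0.32 to -0.08) and interferon genes (-0.58 to -0.11) kept their sign in every alternative, and 8 of the 19 list medians, the clock list among them (-0.04 to 0.03), did not.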
